A study of Mus musculus with 2 samples.

Results

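A set of 9 genes that move monocytes and eosinophils through tissue was followed in mouse heart cells: the CC chemokine ligands Ccl2, Ccl7, Ccl8, Ccl11, Ccl12 and Ccl24, the receptors Ccr1 and Ccr2, and the scavenging receptor Ackr2. They were chosen by name, so the 9 are all the members there are among 56954 features of the deposited matrix, and each of the 9 had UMIs (unique molecular identifiers, one per captured RNA molecule). The cells came from 3 control and 4 Nts knockout mice, Nts being the gene of the peptide neurotensin, 7 days after TAC (transverse aortic constriction, surgery that raises the pressure the heart pumps against). The genotype entry of the labels reads WT with an age of 6 to 8 weeks, which does not match the title, and a CreERT2 transgene was among the features with no promoter named. Hearts were perfused and digested with enzymes, and live cells other than cardiomyocytes were hashtagged per mouse, pooled by sorting and run as 1 10x 3′ library. No cell could be tied to a mouse here, so control and knockout hearts were not compared. Unoperated hearts were not analysed here, and every value is an average over the pooled mice.

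CC chemokines are small secreted proteins with a pair of adjacent cysteines near the start of the mature chain. They bind receptors with a chain that crosses the membrane repeatedly, and leukocytes crawl towards higher concentrations. Ccl2, Ccl7 and Ccl12 act on Ccr2, the receptor that brings classical monocytes out of the bone marrow and into injured heart. Ccl7 and Ccl8 also act on other receptors of the family. Ccl11 and Ccl24 (eotaxin-1 and eotaxin-2) act on Ccr3, the receptor of eosinophils. Ccr1 serves monocytes and neutrophils and binds ligands such as Ccl3 and Ccl5. Ackr2 (atypical chemokine receptor 2, also called D6) takes up inflammatory CC chemokines for degradation without signalling for migration, and is known from lymphatic endothelium.

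The ligands lie close together in the genome. In the GENCODE annotation of GRCm38, Ccl2 (ENSMUSG00000035385, chr11:82035571-82037453), Ccl7 (ENSMUSG00000035373, chr11:82045712-82047525), Ccl11 (ENSMUSG00000020676, chr11:82057823-82062955), Ccl12 (ENSMUSG00000035352, chr11:82101845-82103400) and Ccl8 (ENSMUSG00000009185, chr11:82115185-82116799) are all on the plus strand within 81229 bases. Ccl24 (ENSMUSG00000004814) lies apart at chr5:135569937-135573049 on the minus strand. The 3 receptors are on chromosome 9: Ackr2 (ENSMUSG00000044534) at chr9:121898355-121911074 on the plus strand, Ccr1 (ENSMUSG00000025804) at chr9:123962124-123968692 on the minus strand and Ccr2 (ENSMUSG00000049103) at chr9:124101950-124113557 on the plus strand.

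The coding stretch around the cysteine pair is shown for the 6 ligands, because this pair names the family. Whether the reads of these related genes were told apart in this 3′ library was not tested. Each line is 54 bases of the annotated coding sequence, 5′ to 3′, with the codons of the cysteine pair in capitals.
Ccl2: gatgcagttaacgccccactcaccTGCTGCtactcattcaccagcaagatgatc
Ccl7: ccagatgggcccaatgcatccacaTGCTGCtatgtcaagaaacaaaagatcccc
Ccl8: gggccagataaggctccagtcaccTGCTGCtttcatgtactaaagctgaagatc
Ccl11: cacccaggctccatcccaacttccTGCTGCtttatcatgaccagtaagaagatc
Ccl12: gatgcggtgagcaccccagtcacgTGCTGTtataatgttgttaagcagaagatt
Ccl24: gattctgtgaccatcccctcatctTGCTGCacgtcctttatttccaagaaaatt
The 15 pairs of ligands shared 63.7% (Ccl12 with Ccl24) to 72.1% (Ccl2 with Ccl7) of their aligned coding bases. The longest run of identical bases between any pair of their transcripts was 23 bases, between Ccl2 and Ccl7.

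Cells were placed in gates by raw UMIs of marker lists that held none of the 9 genes. The library held 69993559 UMIs in 9369 barcodes, all distinct, with 2567 to 42567 UMIs per barcode. After 357 called doublets (3.81%) were removed, 9012 cells remained and 7924 of them fell into a gate. The fibroblast gate (at least 6 of 8 lineage markers, among them Pdgfra and Dcn) held 4874 cells, 54.1% of those kept. Its subsets are named by the genes that gated them: Cthrc1 Postn (87 cells), Pi16 Cd248 (393), Cxcl14 C3 (174), Hsd11b1 Penk (291), Igfbp3 Mmp3 Osr1 (149), Il6 Tnc Col26a1 (139), Wif1 Comp Fmod (60) and cycling cells (59), with 3223 in no subset. The Folr2 macrophage gate held 711 cells, the Cd74-high gate 738, the Arg1 gate 41, the classical monocyte gate 219, the non-classical monocyte gate 63 and the lymphatic endothelial gate 64. Gating markers led the genes of the Folr2, Arg1, monocyte and lymphatic gates by fold over all other cells, while Mmp12 and the class II gene H2-Ea led the Cd74-high gate. A gate is a range of marker counts and not a discrete type. At the marker threshold or 1 marker below it lay 496 cells for the Folr2 gate and 21 for the lymphatic gate. Within 2-fold of the class II threshold of the Cd74-high gate lay 271 cells, and 29 cells with macrophage markers had exactly 1 Arg1 UMI.

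Levels are the UMIs of a gene summed over a gate, relative to all UMIs of that gate, in CPM, with 95% exact Poisson intervals. With 1 library there are no replicates, so no significance test was made and every interval covers counting error only. A gene was called higher on a side when it had at least 20 UMIs over both sides and a ratio of CPM of at least 2. Free RNA sets a floor under these levels. In the T cell gate (307 cells, median 3324 UMIs), which should lack the ligands, Ccl7 had 32.6 CPM, Ccl2 had 19.6 and the other 4 ligands had 1.63 to 5.71.

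The ligands divided between the stroma and the myeloid cells by gene. Macrophage and monocyte gates together (2087 cells) were set against the fibroblast gate. Ccl12, Ccl24 and Ccl8 were higher in the myeloid gates, with the receptors Ccr1 and Ccr2, and Ccl11 and Ackr2 were higher in fibroblasts. That makes 5 of 9 members higher in the myeloid gates, where 17% of 17412 genes were, and 2 of 9 higher in fibroblasts, where 31.8% of genes were. Ccl2 and Ccl7 reached the 2-fold threshold in neither direction. The median log2 ratio (with 1 CPM added to each level) was 3.90 over the 9 members and -0.26 over all genes tested.

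Ccl12 had 446 CPM in the myeloid gates and 3.42 in fibroblasts, a ratio of 130 (95% interval 110 to 156). Ccl24 had 127 against 0.679 CPM, a ratio of 188 (128 to 285). Ccl8, at 228 against 14.3 CPM, was 15.9-fold higher (14.6 to 17.5). The fibroblast levels of Ccl12 and Ccl24 did not exceed those of the T cell gate (4.89 and 1.63 CPM). Ccl8 in fibroblasts did, at 14.3 CPM (13.2 to 15.5) against 5.71 (2.30 to 11.8).

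Ccl11 had the opposite distribution. The fibroblast gate held 3481 of its 3685 UMIs (94.5%), at 87.5 CPM against 1.81 in the myeloid gates, a ratio of 48.2 (32.1 to 76.2). Ccl7 was also mostly fibroblast RNA by count, with 72.9% of its UMIs in the fibroblast gate. Its level was nonetheless similar on both sides, 514 CPM in fibroblasts and 377 in the myeloid gates, a ratio of 1.36 (1.32 to 1.41). For Ccl2 the myeloid level was the higher one, 606 against 329 CPM (ratio 1.84, 1.79 to 1.89), although fibroblasts held 53.3% of its UMIs by their number. Under 1 alternative setting the ratio was 2.04, past the threshold.

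**Figure D1:**
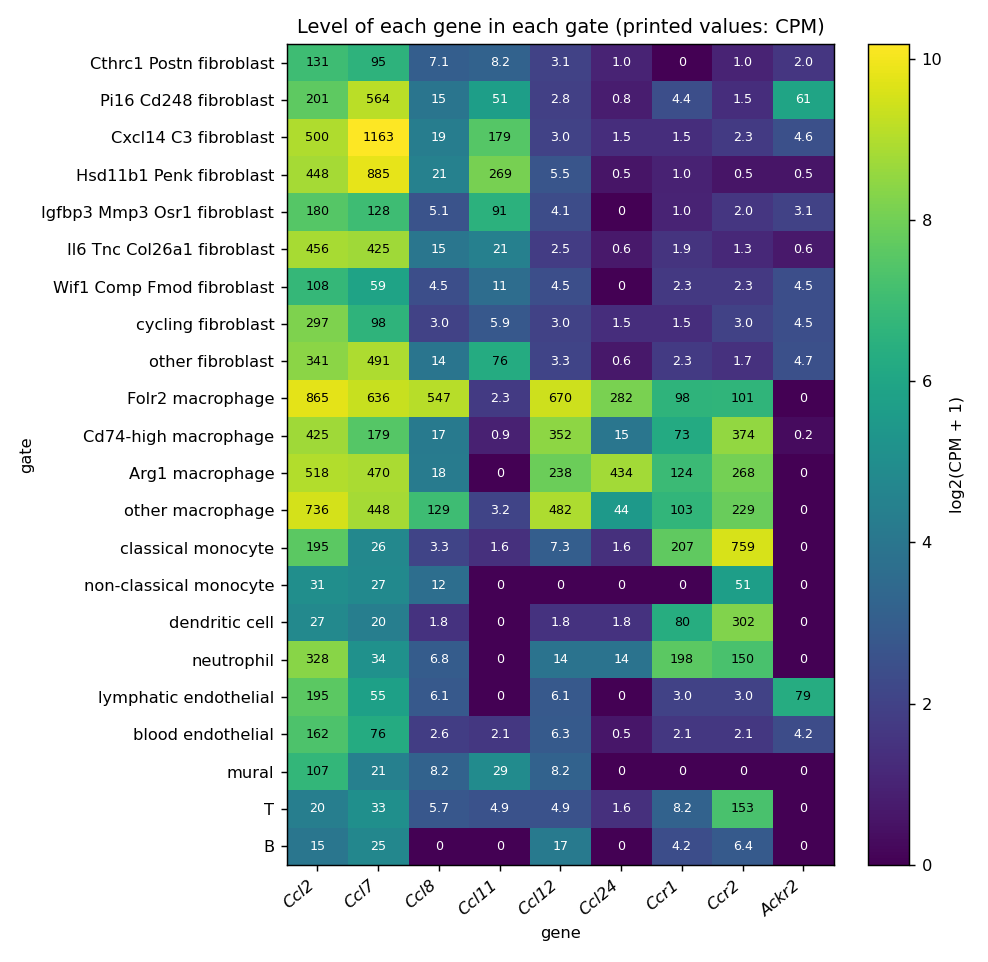
Level of the 9 genes (columns) in 22 gates that share no cell (rows). Colour is log2(CPM + 1) and the printed value is CPM. Outside fibroblast rows Ccl11 is at most 28.8 CPM (mural gate, 7 UMIs in 1 cell), outside macrophage rows Ccl12 is at most 16.9 and Ccl24 at most 13.7, and Ackr2 stands out in the lymphatic endothelial (79.2) and Pi16 Cd248 fibroblast (61.3) rows.

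Among fibroblasts, Ccl7 differed widely between subsets. Its level was 1163 CPM (1105 to 1223) in the Cxcl14 C3 subset, 885 in Hsd11b1 Penk, 564 in Pi16 Cd248, 491 in ungated fibroblasts and 425 in Il6 Tnc Col26a1. The low subsets were Igfbp3 Mmp3 Osr1 at 128 CPM, cycling cells at 98.2, Cthrc1 Postn at 94.9 (76.6 to 116) and Wif1 Comp Fmod at 58.8 (38.4 to 86.1). The intervals of the upper 5 levels overlapped neither each other nor those of the lower 4. They cover counting error only, while 9 of 174 Cxcl14 C3 cells and 15 of 291 Hsd11b1 Penk cells held 50% of the Ccl7 UMIs of their subset. In the Cxcl14 C3 subset Ccl7 was 12.3-fold (9.93 to 15.3) above the Cthrc1 Postn subset and 1.83-fold (1.72 to 1.95) above the Folr2 macrophages. After every cell was thinned to 2500 UMIs, 37.9% of Cxcl14 C3 cells had a Ccl7 UMI (95% Clopper-Pearson interval 30.7 to 45.6%) and 8.05% of Cthrc1 Postn cells did (3.30 to 15.9%). The T cell gate had 7.82%, so the thinned share of the Cthrc1 Postn subset is not above background. Unthinned shares were 51.7%, 21.8% and 11.4%, at median depths of 7018, 10843 and 3324 UMIs.

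The level of Ccl11 was highest in 2 subsets, Hsd11b1 Penk and Cxcl14 C3. They held 14.7% and 6.40% of its UMIs, and the more numerous ungated fibroblasts held 50.2%. It stood at 269 CPM (247 to 293) in the Hsd11b1 Penk subset and 179 (157 to 203) in Cxcl14 C3, followed by 91.1 in Igfbp3 Mmp3 Osr1, 75.5 in ungated fibroblasts and 51.3 in Pi16 Cd248. Il6 Tnc Col26a1 cells had 20.9 CPM, Wif1 Comp Fmod 11.3, Cthrc1 Postn 8.16 (3.52 to 16.1) and cycling cells 5.95. The Hsd11b1 Penk subset therefore exceeded the Cthrc1 Postn subset 33.0-fold (16.6 to 76.8) for this eosinophil attractant. Thinned shares ran from 19.2% of Hsd11b1 Penk cells (14.9 to 24.3%) to 0 of 87 Cthrc1 Postn cells (upper limit 4.15%, for cells with a UMI at this thinned depth), with 0.977% in the T cell gate. Unthinned, 25.4% and 4.60% of the cells of these subsets had a Ccl11 UMI.

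Ccl2 varied less between subsets than Ccl7 or Ccl11. Cxcl14 C3 (500 CPM, 462 to 540), Il6 Tnc Col26a1 (456) and Hsd11b1 Penk (448) overlapped in their intervals and lay above ungated fibroblasts (341). Cycling cells had 297 CPM, and Pi16 Cd248 (201), Igfbp3 Mmp3 Osr1 (180), Cthrc1 Postn (131) and Wif1 Comp Fmod (108) formed the lower end. The Il6 Tnc Col26a1 subset had the largest thinned share of cells with Ccl2, 32.4% (24.7 to 40.8%), against 18.5% of all fibroblasts and 3.91% of T cells. Unthinned these shares were 52.5%, 28.6% and 7.49%. Ccl8 was low in every subset, from 2.97 CPM in cycling cells (2 UMIs) to 21.3 in Hsd11b1 Penk (15.4 to 28.7), and in the order of levels each fibroblast gate overlapped its neighbour.

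Each subset was then set against the fibroblasts outside it. In the Cthrc1 Postn subset, whose gating genes are known from matrix-producing fibroblasts of injured heart, 0 of 9 members were higher and 5 were lower, beside 6.04% and 6.81% of 16123 genes. Ccl11 was at 0.0912 of the level outside (0.0393 to 0.180), Ccl7 5.53-fold lower (4.51 to 6.86) and Ccl2 2.56-fold lower (2.15 to 3.07). Ackr2 (2 UMIs in the subset) and Ccl8 (7 UMIs) were called lower as well, and the Ccl8 interval included 1. The Ccl2 call ended under 2 alternative settings, among them stricter gates, where Ccl2 was 0.667 of the level outside. Against a ratio of 0.181 for Ccl7, stricter gates gave 0.397, gates on thinned UMIs 0.0501 and leaving out the cell richest in Ccl7 on each side 0.0918. For Ccl11 stricter gates gave 0.0457, gates on thinned UMIs 0.0427, cells weighted equally 0.0582 and leaving out the richest cells 0.0594.

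In the Cxcl14 C3 subset, Ccl7 was 2.36-fold higher (2.24 to 2.49) and Ccl11 2.12-fold higher (1.85 to 2.42). Counting Ccl24, which rested on 2 UMIs, 3 of 9 members were higher (4.79% of genes) and Ackr2 alone was lower (5.54% of genes). The Ccl7 call ended under 1 alternative setting, at a ratio of 1.96. For Ccl11 it ended under 2 settings, the lowest ratio being 1.89, and with stricter gates the Ccl11 ratio was 3.49. In the Hsd11b1 Penk subset Ccl11 was 3.46-fold higher (3.15 to 3.79) and was the 1 member called higher (3.72% of genes). Ackr2, Ccr1 and Ccr2 were called lower there (5.87% of genes), each on 1 or 2 UMIs in the subset, and the intervals of Ccr1 and Ccr2 included 1. Ccl7 and Ccl2 were 1.79-fold (1.70 to 1.88) and 1.39-fold (1.29 to 1.48) higher, under the threshold, though Ccl7 reached 2.29 under 1 alternative setting.

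The remaining subsets had members lower and few higher. Igfbp3 Mmp3 Osr1 cells had 4 of 9 lower (5.42% of genes) and none higher (7.12%). Ccl7 was 4.09-fold lower (3.43 to 4.92), and the calls of Ccl8, Ackr2 and Ccr1 rested on 5, 3 and 1 UMIs in the subset. With an interval excluding 1 as well, 3 were lower (1.99% of genes). The Ccl11 ratio was 1.04 (0.835 to 1.29). With gates on thinned UMIs Ccl7 was 0.522 of the level outside, which ends that call. Il6 Tnc Col26a1 cells had 2 of 9 lower (7.05% of genes) and 0 higher (4.58%). The lower ones were Ccl11 (4.33-fold, 3.08 to 6.30) and Ackr2, the latter on 1 UMI in the subset. Stricter gates put Ccl11 at 0.0926 of the level outside against 0.231 with the gates as described. Wif1 Comp Fmod cells had 5 of 9 lower (7.23% of genes) and 0 higher (10.6%), led by Ccl7 at 8.84-fold (6.03 to 13.5). The calls of Ccl11, Ccl8 and Ackr2 rested on 5, 2 and 2 UMIs in the subset. With an interval excluding 1 as well, 3 were lower (2.57% of genes). The Ccl2 call there (3.06-fold lower, 2.31 to 4.15) ended with stricter gates, at 0.580 of the level outside. Ccl7 moved from 0.113 to 0.175 there with gates on thinned UMIs, and Ccl11 from 0.128 to 0.0794 without the richest cell on each side. In cycling fibroblasts 4 of 9 were lower (8.96% of genes) and 1 was higher (12.2%), Ccl24 on a single UMI. The lower calls of Ccl11, Ackr2 and Ccl8 rested on 4, 3 and 2 UMIs in the subset. With an interval excluding 1 as well, 3 were lower (4.45% of genes) and 0 higher (6.58%). There Ccl11 was 14.9-fold (5.83 to 54.9) and Ccl7 5.31-fold (4.17 to 6.87) lower, and the Ccl2 ratio was 0.901 (0.780 to 1.04). With gates on thinned UMIs the cycling Ccl2 ratio was 1.78 and Ccl7 moved from 0.188 to 0.310, while Ccl11, at 0.0669, ranged from 0.0346 to 0.120 across settings. Pi16 Cd248 cells had 2 of 9 higher (2.98% of genes), Ackr2 and Ccr1, and none lower (9.56%). The Ccr1 call rested on 17 UMIs, at 2.01-fold (1.12 to 3.44), and reversed to 0.407 with stricter gates.

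**Figure D2:**
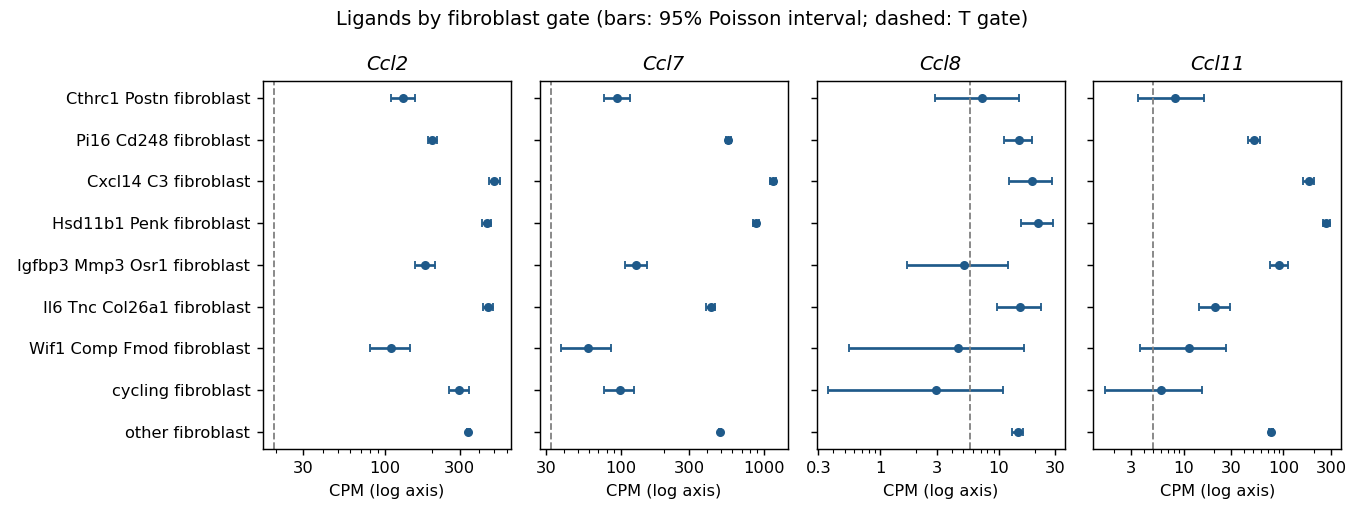
CPM (log axis) of 4 ligands in 9 fibroblast gates, with 95% Poisson intervals, and the T cell gate as a dashed line for free RNA. Ccl7 and Ccl11 are lowest in the Cthrc1 Postn, Wif1 Comp Fmod and cycling gates, while Ccl8 stays within 2.97 to 21.3 CPM.

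Within the fibroblast gate, levels were also read along the counts of the genes that gated the subsets, without a subset threshold. These orders use the same cells and marker genes as the subsets and are no separate support for the differences. Over fibroblasts ordered by Cthrc1 plus Postn UMIs per 10000, Ccl11 went from 146 CPM in the lower 60% of cells to 3.15 in the top 5%, and Ccl7 from 693 to 159. Ordered by Cxcl14 plus C3, Ccl7 went from 339 CPM in the lower 60% to 1187 in the top 5% and Ccl11 from 36.2 to 380. Ordered by Hsd11b1 plus Penk, Ccl11 went from 38.3 to 346 CPM at the 90th to 95th percentile and 306 above it.

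Enzymatic digestion can induce immediate early genes in stromal cells, and chemokine transcripts can be induced in the same way. Immediate early UMIs were 23240 CPM in the fibroblast gate, 26317 in Cxcl14 C3, 25578 in Hsd11b1 Penk, 14508 in Cthrc1 Postn and 14962 in cycling cells. Over 3 equal groups of fibroblasts by this count, from the lowest to the highest, Ccl2 was 329, 342 and 314 CPM. Ccl7 was 418, 540 and 587 CPM and Ccl11 was 78.3, 80.6 and 105. Within the lowest group, Ccl7 was 1253 CPM in Cxcl14 C3 cells, 688 in Hsd11b1 Penk and 56.1 in Cthrc1 Postn, and Ccl11 was 114, 312 and 10.6. The whole Cthrc1 Postn subset had 8 Ccl11 UMIs in 87 cells, so its Ccl11 level in this group rests on few counts. The part of dissociation in the levels was not tested.

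Among macrophages, the Folr2 gate carried most of the ligands. Folr2, Cbr2 and F13a1 mark macrophages that reside in the heart. The Cd74-high gate is set by the class II antigen presentation genes and by at most 1 Folr2-list marker. These gates therefore differ in Folr2-list markers by definition. Against the Cd74-high gate, 4 of 9 members were higher in Folr2 macrophages (Ccl8, Ccl24, Ccl7 and Ccl2), where 7.45% of 11433 genes were, and 1 was lower (Ccr2), where 3.56% were. Ccl11 and Ackr2 had under 20 UMIs over both gates. Over the 7 members tested the median log2 ratio was 1.02, and 0.17 over all genes.

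Ccl8 separated these states most. It had 2566 UMIs in the Folr2 gate, 547 CPM (526 to 568), against 16.9 CPM in the Cd74-high and 18.1 in the Arg1 gate, a ratio of 32.3 (25.6 to 41.3) to the Cd74-high gate, or 21.5 with cells weighted equally. The Folr2 gate held 63.9% of all Ccl8 UMIs in the library in 7.89% of its cells. At 2500 UMIs per cell 23.6% of Folr2 macrophages had a Ccl8 UMI (20.6 to 26.9%), 2.44% of Cd74-high macrophages (1.45 to 3.83%) and 1.30% of T cells. Unthinned these shares were 32.5%, 4.34% and 1.95%, at median depths of 6065, 5366 and 3324 UMIs.

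Ccl24 followed Ccl8 in the Folr2 gate but not in the Arg1 gate. It reached 282 CPM (267 to 297) in Folr2 macrophages against 15.1 in the Cd74-high gate, a ratio of 18.7 (14.6 to 24.4). Its thinned share was 34.3% of Folr2 macrophages (30.8 to 37.9%), 3.12% of Cd74-high macrophages and 0.651% of T cells, and unthinned 51.2%, 4.88% and 0.651%. Ccl7 was 3.54-fold higher in the Folr2 gate (636 against 179 CPM, 3.27 to 3.84) and Ccl2 2.03-fold (865 against 425 CPM, 1.92 to 2.15). The Ccl2 ratio was 1.88 under 1 alternative, below the threshold. Ccl12 had 670 against 352 CPM, a ratio of 1.90 (1.79 to 2.02), which was 2.04 under 1 alternative.

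The number of Folr2-list markers detected in a cell, which also set the Folr2 gate, ordered these genes without a threshold. Over all cells with macrophage markers, from 0 to all 5 markers, Ccl8 went from 13.3 to 859 CPM, Ccl24 from 13.3 to 365, Ccl7 from 136 to 889 and Ccl2 from 421 to 1023. Ccl12 went from 287 to 686 CPM at 4 markers and was 663 at 5. Ccr2 went the other way, from 319 to 38.3 CPM, and Ccr1 was between 71.0 and 118. Along class II UMIs, Ccl8 was 595 CPM in the 377 cells with under 25 per 10000. It was 216 CPM in the 372 cells from 400 to under 800 and 35.8 in the 643 cells with 800 or more. Ccr2 was 52.3 CPM in the lowest and 373 in the highest of these groups.

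**Figure D3:**
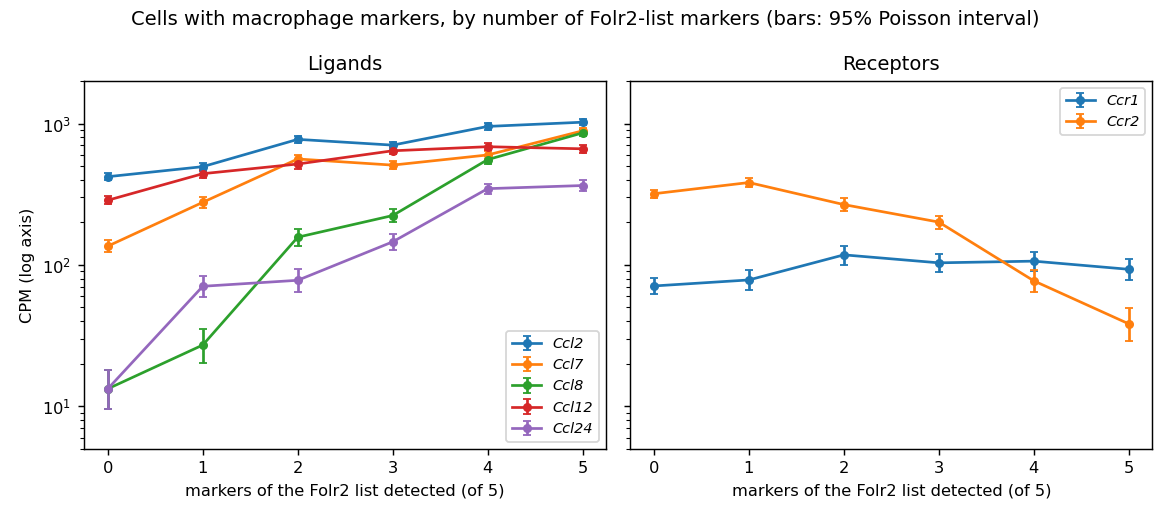
CPM (log axis) of 5 ligands and 2 receptors in macrophage-marker cells grouped by how many of 5 Folr2-list markers had a UMI, with 95% Poisson intervals. Ccl8 and Ccl24 climb from 13.3 CPM to 859 and 365, Ccr2 ends at 38.3 and Ccr1 lies between 71.0 and 118.

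The ligands made up a different mixture in each state. Of the UMIs of the 6 ligands, Ccl12 made up 35.6% in the Cd74-high gate, 22.3% in the Folr2 gate, 14.2% in the Arg1 gate and 0.360% in fibroblasts. Ccl24 made up 25.9% in the Arg1 gate, 9.38% in the Folr2 gate and 1.52% in the Cd74-high gate. Ccl8 was 18.2% of the ligand UMIs in the Folr2 gate and 1.08% to 1.71% in the other 2 states.

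The Arg1 gate was small, with 41 cells and 331849 UMIs, and its levels rested on few cells. Arg1 encodes arginase 1, an enzyme of macrophages in wounds. Ccl24 was 434 CPM there (366 to 511), from 144 UMIs in 13 cells, of which 2 cells held at least 50%. It was 28.8-fold (21.3 to 39.2) above the Cd74-high gate and 1.54-fold (1.29 to 1.83) above the Folr2 gate. At 2500 UMIs 26.8% of Arg1 cells had a Ccl24 UMI (14.2 to 42.9%), and 31.7% unthinned. Ccl8 was 30.2-fold lower than in the Folr2 gate (13.9 to 82.5), with all 6 of its UMIs in 1 cell, and Ccl12 was 2.81-fold lower (2.25 to 3.57).

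Against the Folr2 gate, 1 of 9 members was higher in the Arg1 gate (Ccr2, 2.66-fold, 2.09 to 3.34) beside 6.46% of 10171 genes, and 2 were lower beside 16.6%. Against the Cd74-high gate, 2 of 9 were higher (Ccl24 and Ccl7, the latter 2.62-fold, 2.19 to 3.11) beside 8.05% of 9622 genes, and 0 were lower beside 12.8%. In both comparisons 7 of the 9 members had the UMIs to be tested. With an interval excluding 1 as well, the member counts stayed the same. The shares of genes higher and lower were then 4.44% and 6.81% against the Folr2 gate and 5.5% and 4.39% against the Cd74-high gate. A single cell held 97 of the 172 Ccl2 UMIs, and without the richest cell on each side the Ccl2 ratio to the Folr2 gate moved from 0.599 to 0.276. Gates set on thinned UMIs gave 0.174 for Ccl2, 0.444 for Ccl7 and 0.0386 for Ccl12, and looser gates ended the Ccr2 call at 1.51 and the Ccl12 call at 0.527. Ccl24 over the Folr2 gate ranged from 1.05 to 2.17 across settings, and Ccl7 over the Cd74-high gate was 1.21 with gates on thinned UMIs and 4.01 with stricter gates. Ccl8 relative to the Folr2 gate, 0.0331, ranged from 0.0120 to 0.0509. Neutrophil markers had 530 CPM in the Arg1 gate and 112 in the Folr2 gate, and their part in these values was not tested.

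Classical monocytes carried the receptors and little of the ligands. Ly6c2, Chil3 and Plac8 mark these cells, which enter tissue from blood. Against the 3 macrophage states (1490 cells), 2 of 9 members were higher in classical monocytes (Ccr2 and Ccr1), where 7.91% of 11813 genes were. Ccl24, Ccl8, Ccl12, Ccl7 and Ccl2, 5 of 9, were lower, where 19.5% of genes were. The median log2 ratio was -3.96 over the 7 members tested and -0.12 over all genes.

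Ccr2, the receptor for Ccl2, Ccl7 and Ccl12, had 759 CPM in classical monocytes (711 to 809) and 50.9 in the non-classical gate (13 UMIs), a ratio of 14.9 (8.67 to 28.1). In the other myeloid gates Cd74-high macrophages had 374 CPM (356 to 393), dendritic cells 302, the Arg1 gate 268, ungated macrophages 229, neutrophils 150 and the Folr2 gate 101 (92.1 to 111). Dendritic and Arg1 gates overlapped in their intervals, as did the Arg1 gate and ungated macrophages. T cells, some of which are known to carry this receptor, had 153 CPM (131 to 176) and B cells 6.35. Ccr2 was 3.25-fold higher in classical monocytes than in the macrophage states (3.01 to 3.51).

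Thinned shares of cells with a Ccr2 UMI were 77.2% of classical monocytes (71.0 to 82.6%), 41.5% of Cd74-high macrophages (37.9 to 45.1%), 36.6% of Arg1 cells (22.1 to 53.1%), 10.8% of Folr2 macrophages (8.64 to 13.3%) and 4.76% of non-classical monocytes. The fibroblast gate, which should lack it, had 0.595% at a median depth of 7645 UMIs, against 5475 in classical monocytes. Unthinned, 88.1% of classical monocytes, 54.9% of Cd74-high macrophages, 15.5% of Folr2 macrophages and 1.19% of fibroblasts had a UMI.

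Ccr1 was highest in classical monocytes at 207 CPM (182 to 234) and in the 31 cells of the neutrophil gate at 198 (133 to 285), which overlapped. The Arg1 gate had 124 CPM, ungated macrophages 103, the Folr2 gate 98.2, dendritic cells 80.5 and the Cd74-high gate 73.3, each overlapping its neighbour in that order. The non-classical gate had no Ccr1 UMI among 63 cells, and 3 counts there would be 11.7 CPM. Classical monocytes exceeded the macrophage states 2.36-fold (2.04 to 2.72). Thinned shares were 32.9% of classical monocytes, 45.2% of the neutrophil gate (27.3 to 64.0%), 17.3% of Folr2 macrophages, 13.6% of Cd74-high macrophages and 0.492% of fibroblasts. Unthinned these were 46.6%, 54.8%, 34.2%, 22.9% and 1.19%.

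**Figure D4:**
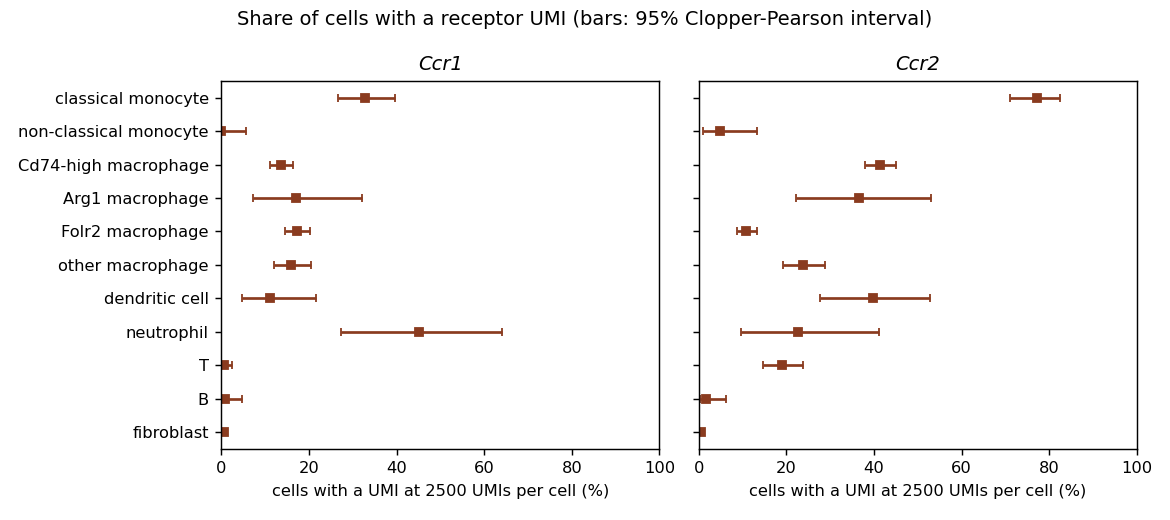
Share of cells with at least 1 UMI of Ccr1 (left) and Ccr2 (right) after thinning to 2500 UMIs per cell, in percent, with 95% Clopper-Pearson intervals. Classical monocytes lead for Ccr2 at 77.2% while the Folr2 gate has 10.8%, and fibroblasts are at 0.492% for Ccr1 and 0.595% for Ccr2.

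The ligands in classical monocytes were near the free-RNA level, except Ccl2. Ccl2 had 195 CPM (171 to 221), Ccl7 26.1 (17.8 to 36.8, against 32.6 in T cells), Ccl12 7.33, Ccl8 3.26, Ccl24 1.63 and Ccl11 1.63. Ccl2 was 3.33-fold lower than in the macrophage states (2.93 to 3.81) and Ccl7 16.1-fold lower (11.4 to 23.5). Looser gates moved these ratios of monocytes to macrophages from 0.300 to 0.895 for Ccl2 and from 0.0622 to 0.587 for Ccl7, ending both calls, and gates on thinned UMIs gave 0.457 for Ccl2. In non-classical monocytes Ccl2 had 31.3 CPM (13.5 to 61.7) and Ccl12 and Ccl24 had 0 UMIs.

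Ackr2 was highest in 2 gates. The lymphatic endothelial gate, led by Ccl21a, Mmrn1 and Flt4, had 26 UMIs in 18 of 64 cells, 79.2 CPM (51.7 to 116). Pi16 Cd248 fibroblasts, known as adventitial or progenitor-like fibroblasts, had 238 UMIs, 61.3 CPM (53.8 to 69.6). The lymphatic level was 1.29-fold the level in these fibroblasts (0.827 to 1.94), an interval that includes 1. All other gates had 4.65 CPM or less. Of the 460 Ackr2 UMIs in the library, Pi16 Cd248 fibroblasts held 51.7%, the 3223 ungated fibroblasts 24.8% and the lymphatic gate 5.65%. The ungated fibroblasts had 4.65 CPM (3.84 to 5.59), while Folr2 macrophages had 0 UMIs (upper limit 0.786 CPM), as did T cells (upper limit 3.01 CPM).

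Between endothelial gates Ackr2 was 18.7-fold higher in lymphatic than in blood endothelium (79.2 against 4.23 CPM, 8.23 to 47.9). It was the 1 member called higher (8.28% of 9144 genes), 0 were lower (14.8%), and 3 of 9 had the UMIs to be tested. The other 2, Ccl2 (195 against 162 CPM, ratio 1.21, 0.906 to 1.58) and Ccl7 (54.8 against 76.1, ratio 0.720, 0.415 to 1.18), were not called. In the blood gate the cell richest in Ccl2 held 130 of 306 UMIs, and the cell richest in Ccl7 held 79 of 144. With cells weighted equally the ratios were 1.87 for Ccl2 and 1.19 for Ccl7. With gates on thinned UMIs the Ccl2 ratio was 2.01, past the threshold, and the Ccl7 ratio ran from 0.452 with stricter gates to 1.99 with gates on thinned UMIs. Across settings the Ackr2 ratio ran from 12.2 (stricter gates) to 36.8 (cells weighted equally). At 2500 UMIs 23.4% of lymphatic cells had an Ackr2 UMI (13.8 to 35.7%), and 0 of 331 blood endothelial cells did (upper limit 1.11%, for cells with a UMI at this thinned depth). Unthinned shares were 28.1% and 1.51%. Among Folr2 macrophages 0 of 711 cells had a UMI.

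Against the other fibroblasts Ackr2 was 13.3-fold higher in the Pi16 Cd248 subset (10.9 to 16.4), and 14.5-fold higher than in blood endothelium (7.24 to 34.0). It rose along the combined Pi16 and Cd248 count, at 0.312 CPM in the lowest 20% of fibroblasts, 1.52 at the 40th to 60th percentile, 15.3 at the 80th to 90th, 41.6 at the 90th to 95th and 79.0 above the 95th. Of 239 fibroblasts with an Ackr2 UMI, 238 also had a Pi16 UMI (99.6%), where 86.4% of all fibroblasts had one. These counts are unthinned and not matched for depth. Thinned shares were 15.5% of Pi16 Cd248 cells (12.1 to 19.5%) and 1.27% of ungated fibroblasts, and unthinned 30.8% and 2.73%. Lymphatic markers summed to 3.61 CPM in the Pi16 Cd248 gate, 7.41 in the remaining fibroblasts and 30898 in the lymphatic gate, and 2 of the 5 were at 0 in the Pi16 Cd248 gate. The 2 fibroblast markers summed to 24.4 CPM in the lymphatic gate and 7529 in the Pi16 Cd248 gate.

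**Figure D5:**
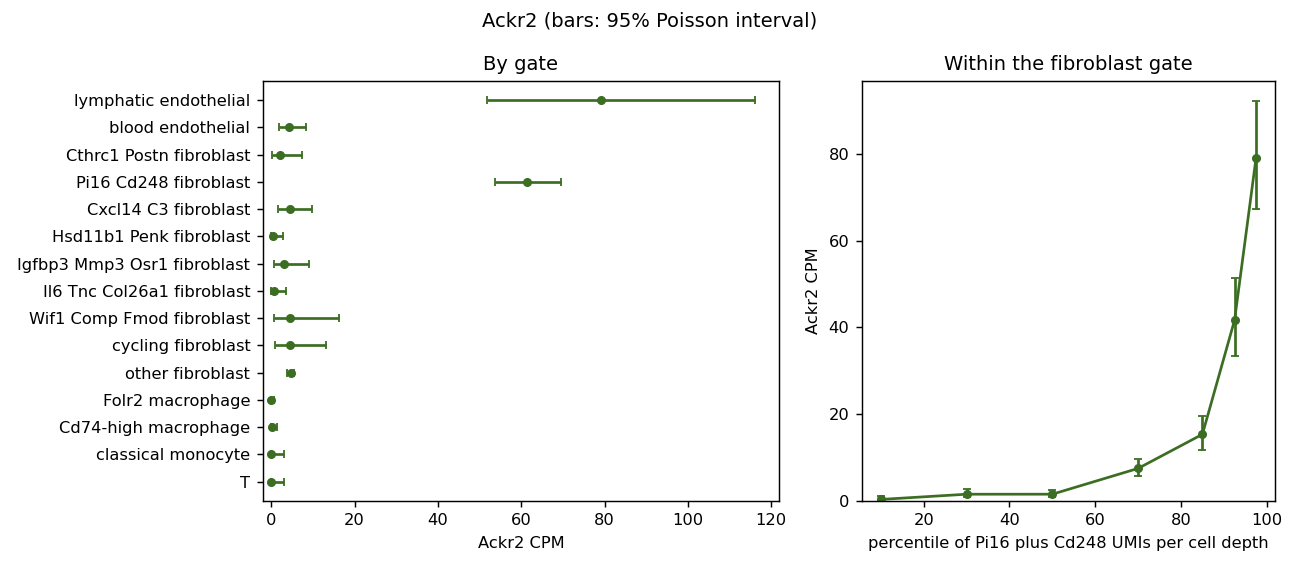
Ackr2 CPM by gate (left) and in fibroblasts ordered by Pi16 and Cd248 UMIs relative to each cell's total (right), with 95% Poisson intervals. The lymphatic and Pi16 Cd248 gates stand at 79.2 and 61.3 CPM, and the level within fibroblasts climbs to 79.0 above the 95th percentile.

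Ligand transcripts were concentrated in a minority of cells. In the fibroblast gate 560 of 4874 cells had 5 or more Ccl2 UMIs and held 89.8% of all Ccl2 UMIs, 114 cells held 50% of them, and the richest cell had 347. For Ccl7, 758 cells with 5 or more UMIs held 93.0% and 151 cells held 50%. Ccl11 was similar, with 88 cells holding 50%. In the Folr2 gate 15 of 711 cells held 50% of the Ccl8 UMIs and 1 cell had 427, while for Ccl24 it took 55 cells. Ccr2 was spread more evenly in classical monocytes, where 52 of 219 cells held 50% of its UMIs and the richest had 15. In the Folr2 gate 21 cells held 50% of the Ccr2 UMIs, fewer than for Ccl24, and 64 cells held 50% of the Ccr1 UMIs.

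Ccl2 and Ccl7 tended to be found in the same cells. At 2500 UMIs per cell, 380 fibroblasts had both, 42.1% of the 903 with Ccl2, against 18.7% Ccl7 among fibroblasts without Ccl2. In Folr2 macrophages these shares were 49.8% and 17.2%, and in Cd74-high macrophages 32.4% and 8.80%. Ccl11 was less tied to Ccl2, present in 10.4% of fibroblasts with Ccl2 and 8.16% of those without. In Folr2 macrophages, Ccl24 was seen in 43.5% of cells with Ccl8 and 31.5% of those without, and Ccl12 in 31.6% of cells with Ccl24 and 36.0% of those without. In Cd74-high macrophages Ccr2 was seen in 30.3% of cells with Ccl12 and 45.0% of cells without. Among classical monocytes, 79.2% of cells with Ccr1 and 76.2% of cells without had Ccr2.

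A list of 32 further genes of the pathway was counted by the same rule. Between myeloid and fibroblast gates 28 were tested, 15 were higher in the myeloid gates (17% of genes) and 8 in fibroblasts (31.8%). Ackr4, an atypical receptor for homeostatic chemokines, was 152-fold higher in fibroblasts (73.8 to 379), and Il33, an alarmin that activates type 2 immune cells, was 96.6-fold higher (50.8 to 211). On the myeloid side Ccl9, a chemokine ligand, was 115-fold higher (95.5 to 141). In Folr2 against Cd74-high macrophages 2 of 20 were higher (7.45% of genes) and 4 lower (3.56%), with Tslp, a type 2 cytokine, 20.7-fold higher (10.3 to 48.6) and Il1b, which induces Ccl2, 4.98-fold lower (4.79 to 5.18). In the Arg1 gate 2 of 17 were higher (6.46% of genes) and 2 lower (16.6%) than in the Folr2 gate, and 2 of 19 higher (8.05%) and 3 lower (12.8%) than in the Cd74-high gate. In classical monocytes 1 of 20 was higher (7.91% of genes) and 5 lower (19.5%) than in the macrophage states.

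In the fibroblast subsets 27 of the 32 were tested each time. Higher and lower counts were 3 and 5 in Cthrc1 Postn, 1 and 5 in Pi16 Cd248, 1 and 0 in Cxcl14 C3, 1 and 2 in Hsd11b1 Penk, 1 and 1 in Igfbp3 Mmp3 Osr1, 2 and 3 in Il6 Tnc Col26a1, 1 and 5 in Wif1 Comp Fmod and 0 and 7 in cycling cells. In the same order, the shares of all genes called higher and lower were 6.04% and 6.81%, 2.98% and 9.56%, 4.79% and 5.54%, 3.72% and 5.87%, 7.12% and 5.42%, 4.58% and 7.05%, 10.6% and 7.23%, and 12.2% and 8.96%. With an interval excluding 1 as well, the counts were 3 and 5, 1 and 3, 1 and 0, 0 and 0, 0 and 1, 1 and 1, 1 and 1, and 0 and 6. The shares of genes were then 2.29% and 2.8%, 2.09% and 3.99%, 1.56% and 1.87%, 1.49% and 2.29%, 2.63% and 1.99%, 1.45% and 2.52%, 3.73% and 2.57%, and 6.58% and 4.45%. Cthrc1 Postn cells had Tslp 3.23-fold lower (1.92 to 5.91). The Pi16 Cd248 subset had a second atypical receptor, Ackr1, 9.49-fold higher (5.88 to 15.4, 38 UMIs). In lymphatic against blood endothelium 1 of 19 was higher (8.28% of genes) and 9 lower (14.8%), with Ackr4 at 0 UMIs in the lymphatic gate and at least 5.96-fold lower against a floor of 3 counts over the gate. With an interval excluding 1 as well, 0 were higher there (6.7% of genes) and 7 lower (8.75%).

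Eosinophils, the cells that Ccl11 and Ccl24 attract, were not recognised among the cells analysed. Of the 5 eosinophil markers, 0 of 9012 cells had 3 or more and 1 cell had 2. Ccr3, the receptor of both eotaxins, had 15 UMIs in the library, Siglecf 54, Il5ra 25, Prg2 21 and Epx 0. The target cells of these ligands could therefore not be described here.

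Genes with the pattern most like each member were looked for over 22 gates among 9742 genes, by Pearson's r of log2(CPM + 1). All gates share the library and its free RNA, and r is given as a description. Ccl12 went with C1qa (r = 0.958), Pf4 (0.948) and C1qb (0.940), and Ccl24 with Pf4 (0.938), Fcna (0.938) and C1qb (0.907). Ccl11 went with the feature ENSMUSG00000120913 (0.967), Lgi2 (0.945) and Eef1a2 (0.929), and Ccr2 with Lgals3 (0.965), Cotl1 (0.946) and Myo1f (0.941). For Ccr1 the nearest were Tbxas1 (0.911), Cd33 (0.892) and Rgs18 (0.890). The values were lower for Ccl2 (Stard9, 0.924, Ang, 0.871, and Rab31, 0.838), Ackr2 (Nhsl1, 0.869, Tspan18, 0.864, and Limch1, 0.844), Ccl8 (Fxyd2, 0.850, Dnajb9, 0.812, and Prxl2b, 0.810) and Ccl7 (G530011O06Rik, 0.840, Cmklr1, 0.839, and Pigz, 0.835).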

How the data were processed

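The deposited matrix holds whole-number UMI counts, not normalized by the authors. Per the submitters' processing notes STARsolo, Scanpy and mm10 were used, with no version, setting or cell-calling rule given in the sources used here. The annotation release is not given either: 52029 of 56953 Ensembl gene IDs, and all 9 members, matched GENCODE M21 (GRCm38), which supplied positions and coding sequences. The second library, of hashtags, was left out. Software was Python 3.11.15, scanpy 1.11.5 (its Scrublet for doublets), numpy 2.4.6, scipy 1.17.1 and pandas 2.3.3. The 9 genes, the gene lists and the comparisons were chosen with earlier results of these data known. Gate thresholds were set after marker distributions, not the 9 genes, had been seen: 299 fibroblasts and 58 myeloid cells in more than 1 gate were left out of subsets, 367 cells passing several lineages and 226 passing none were left out altogether, and UMIs of other lineages' markers were limited to 0.4% of a cell. Gates asked for 6 of 8 myeloid or 4 of 7 endothelial markers, then 3 of 5 Folr2-list markers, 200 class II UMIs per 10000, 1 Arg1 UMI, 3 of 6 monocyte markers, 3 of 5 lymphatic markers, or subset marker UMIs in the top 10% of fibroblasts. The Cd74-high gate also left out Arg1 gate cells and cells with more than 1 Folr2-list marker. Ratios of CPM have 95% exact intervals from the binomial split of the summed counts, and sides at 0 were set to 3 counts. Named genes were all 9 members, up to 4 called pathway genes per comparison by largest ratio, and the 3 most similar genes (at least 500 UMIs, 1 CPM added before logs) per member. The result of 1 gene of the pathway list is not reported here.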

Additional observations from a re-analysis of the deposited data

How the results depend on the processing

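Each of 112 member ratios was recomputed with called doublets kept, stricter gates, looser gates, gates on thinned UMIs, cells weighted equally and, chosen after seeing the data, without the cell richest in the gene on each side. Of 672 values, 588 kept the call or still had none, 31 lost the call, 44 gained one and 9 reversed a called ratio. Direction was not compared for ratios without a call at first. Ccl2 in Hsd11b1 Penk, at 1.39 and not called, ranged from 0.979 to 1.59. All 9 reversals were in fibroblast subsets with few UMIs of the gene: with stricter gates Ccr1 in Pi16 Cd248 (0.407), Hsd11b1 Penk (2.33) and Igfbp3 Mmp3 Osr1 (2.28) and Ccr2 in Hsd11b1 Penk (1.45), with gates on thinned UMIs Ccr1 in Hsd11b1 Penk (1.69), Ackr2 in Wif1 Comp Fmod (1.25) and cycling cells (1.75) and Ccl8 in cycling cells (1.16), and without the top cell Ccr1 in Igfbp3 Mmp3 Osr1 (1.43). In the last case the only Ccr1 UMI of the subset was left out, so the ratio of 1.43 rests on the floor of 3 counts. The cause of the other reversals was not tested. The number of members called moved by over 1.5 times in 12 cases. With doublets kept or looser gates it was 1 in Pi16 Cd248, and in Cxcl14 C3 it was 2 with looser gates and without the top cell. In lymphatic against blood endothelium it was 2 with stricter, looser and thinned-UMI gates. On thinned UMIs it was 5 in Arg1 against Folr2, 2 in Hsd11b1 Penk and 3 in cycling cells. With cells weighted equally it was 4 in Arg1 against Cd74-high, and without the top cell 4 in Il6 Tnc Col26a1. A minimum of 50 UMIs lowered the genes called in 4 of 14 comparisons by over 1.5 times, to 760 in Folr2 against Cd74-high, 1308 in Arg1 against Cd74-high, 1234 in Pi16 Cd248 and 1196 in lymphatic against blood endothelium. Of 45 shares of cells, those of the 9 genes in 5 gates, 39 were higher unthinned and 6 were equal. No paired analysis was possible because the only library analysed is 1 pool. Depth limits the Arg1, lymphatic and small fibroblast gates, and each ratio has no replicate behind it.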
